A study of Mus musculus with 204 samples.

Results

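Igfbp2 and Igfbp5 encode insulin-like growth factor (IGF) binding protein 2 and IGF binding protein 5, which lie beside each other on mouse chromosome 1. They were chosen by name as the IGF binding proteins described here, 2 of the 13153 genes analysed, and are described in 204 RNA sequencing libraries of 21 tissues from lean and diet-induced obese mice. Igfbp2 (ENSMUSG00000039323) had no read in 17 libraries, and Igfbp5 (ENSMUSG00000026185) had reads in all of them.

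IGFs are growth factors that circulate and act locally through a receptor related to the insulin receptor. IGF binding proteins are secreted carriers that hold most IGF in blood and tissue fluid, prolong its life and limit or focus its access to the receptor. IGFBP2 is made largely by liver and brain, while IGFBP5 is made by many mesenchymal cells, muscle and kidney, and binds extracellular matrix as well as IGF. The other IGF binding proteins, the IGFs and their receptor were not analysed here.

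The mice were wild-type male C57BL/6J, an inbred strain. Diet-induced obese (DIO) mice had been placed at 4 weeks of age on food with 60% fat and kept on it for 10 weeks, and lean mice stayed on chow with 13.1% fat. For both diets the labels give an age of 6 to 12 weeks at supply, which does not match a diet begun at 4 weeks, and no other age is given for lean mice. The 102 DIO and 102 lean libraries gave 5 of each per tissue, except for 3 DIO libraries in subcutaneous fat, 4 DIO and 3 lean libraries in mesenteric fat and 4 lean libraries in the EDL muscle. The study was designed with 5 mice per diet, but the labels do not say which mouse a library came from, so p-values measure the spread between libraries and tissues may share animals. Levels are CPM, counts per 1000000 reads of a library, so within a tissue fewer cells of a type and less RNA per cell cannot be told apart. The median library held 20.7 M reads, the smallest 6.58 M and the largest 129.7 M.

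By a rule on marker genes set out with the methods, 18 libraries stood apart from their tissue. In the adrenal these were DIO 1, DIO 2 and lean 1, in which Hsd3b1, a steroid-making enzyme of the adrenal cortex, was at 0.173, 0.0833 and 0 CPM against a median of 9132 CPM over the adrenal libraries. The 8 hepatocyte genes of the marker list summed to 11232 CPM in adrenal DIO 1, and they summed to 207, 176 and 273 CPM in retroperitoneal DIO 4, lean 3 and lean 4. The other 12 carried marker genes of muscle, bowel, pancreas, lymphoid or kidney tissue or the choroid plexus list, or of hepatocytes, in brown, epididymal (eWAT), mesenteric, retroperitoneal or subcutaneous fat, stomach or red gastrocnemius. Several results that rest on such libraries are given with and without them.

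In GENCODE M21 (GRCm38) Igfbp2 runs on the plus strand of chromosome 1 from 72824503 to 72852474, and Igfbp5 on the minus strand from 72857932 to 72874884. The genes thus meet tail to tail, with 5457 bases between their ends and their start sites at the far sides. The union of annotated exons is 1847 bases for Igfbp2 and 6006 bases for Igfbp5, so CPM of the 2 genes are compared only per kilobase of exon. Because the neighbours differed in where they were high and moved in opposite directions with diet in liver, the 250 bases before one RefSeq start site of each gene are shown (RefSeq, GRCm38.p6). Capitals mark GGGCGG in Igfbp2 and CANNTG (here CAACTG) in Igfbp5, and the RefSeq table holds a second Igfbp2 promoter that is not shown. The Igfbp2 stretch is chr1:72824230-72824479 on the plus strand and the Igfbp5 stretch chr1:72874866-72875115 on the minus strand, each printed 5′ to 3′ on the gene's own strand.
Igfbp2: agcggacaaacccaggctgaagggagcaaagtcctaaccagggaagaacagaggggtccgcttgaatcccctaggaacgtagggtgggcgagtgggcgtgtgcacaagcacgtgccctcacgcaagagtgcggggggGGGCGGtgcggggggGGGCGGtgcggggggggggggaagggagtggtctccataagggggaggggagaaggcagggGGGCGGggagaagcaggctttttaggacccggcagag
Igfbp5: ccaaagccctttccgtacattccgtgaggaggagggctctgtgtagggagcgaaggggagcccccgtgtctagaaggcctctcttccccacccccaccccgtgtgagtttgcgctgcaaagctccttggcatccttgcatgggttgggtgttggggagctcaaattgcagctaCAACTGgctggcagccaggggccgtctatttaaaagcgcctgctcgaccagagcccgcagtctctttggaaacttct

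The Igfbp2 stretch was 67.2% G or C with 14 CpG, and the Igfbp5 stretch was 58.8% with 10 CpG. Across 32851 promoter stretches of the same length the median was 52.4% with 6 CpG, and 86.5% of them had a lower G or C share than Igfbp2 and 68.9% a lower share than Igfbp5. The motifs were searched on both strands and chosen after the sequences had been seen. GGGCGG, the core of a GC box, occurred 3 times in Igfbp2, starting 113, 98 and 37 bases before the start site, and in no place in Igfbp5. It was present in 32.7% of all promoter stretches. CANNTG, the E-box core, occurred once in each gene, 142 bases before the start in Igfbp2 and 77 bases before it in Igfbp5, and 66.2% of all stretches held it. TATAAA was in neither stretch (12.4% of all held it), and TTTAAA, held by 12.1%, was 49 bases before the Igfbp5 start. Such matches describe letters and are not binding sites.

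Igfbp2 was high in liver, lower in stomach and the brain, and near 0 in muscle, heart and most fat. Lean liver held 338.8 ± 88.0 CPM (SD, n = 5), 2.85 times lean stomach at 118.9 ± 28.8 (n = 5). Below them came midbrain/BS (as labelled) with 55.5 ± 4.69, cerebral cortex with 39.8 ± 4.37, cerebellum with 38.9 ± 12.4 and hypothalamus with 19.2 ± 6.29 CPM (each n = 5). Lean kidney averaged 13.2 ± 14.4 CPM (n = 5), with libraries at 0.790, 6.81, 29.2, 1.0 and 28.3 CPM. Colon averaged 8.20, adrenal 7.07, mesenteric fat 5.20, retroperitoneal fat 4.19 and eWAT 1.41 CPM. The other 9 tissues averaged under 1 CPM, down to 0.0219 CPM in brown fat, where no library held more than 4 reads.

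In that order only the first 3 neighbouring pairs (liver and stomach, stomach and midbrain/BS, midbrain/BS and cortex) had ranges that did not overlap. Each had p = 0.00794 in the exact two-sided permutation test, the smallest that 5 against 5 libraries allow, and an adjusted p of 0.0529 over 20 neighbouring pairs. Thus none of the 20 steps in the order passed 0.05 after adjustment. With 3 pairs at the smallest p the adjusted value could be no lower, so it says nothing on the size of these steps. The places of adrenal and retroperitoneal fat rested on libraries that stood apart: without them the lean means were 1.73 CPM in adrenal and 0.431 CPM in retroperitoneal fat.

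Igfbp5 was broad, with 16 of 21 lean tissues at or above 100 CPM and liver as the lowest. The EDL muscle was highest at 885 ± 135 CPM (n = 4), then kidney at 629 ± 212, adrenal at 504 ± 232 and red gastrocnemius at 394 ± 36.8 CPM (each n = 5). Next were eWAT at 335.1 and retroperitoneal fat at 334.8 CPM, which did not differ beyond their spread of 113 and 153 (SD). Subcutaneous fat (253.9), cerebellum (242.7) and soleus (224.4 CPM) followed. Hypothalamus (182.0), cortex (179.5), mesenteric fat (178.5) and heart (178.0 CPM) were within 5 CPM of each other. Midbrain/BS averaged 159.7, stomach 141.2 and colon 122.8 CPM, and jejunum 74.1, ileum 71.9, brown fat 49.6 and duodenum 29.9 CPM. Lean liver held 6.28 ± 1.63 CPM (n = 5), so the means spanned 140.8-fold. Without the libraries that stood apart, lean means were 589 CPM in adrenal, 405.5 in retroperitoneal fat, 350.3 in subcutaneous fat and 286.4 in eWAT. Retroperitoneal fat, then with n = 2, stood above red gastrocnemius (398.5 CPM).

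Duodenum and liver were the only neighbouring pair of Igfbp5 whose lean ranges did not overlap (exact permutation p = 0.00794, adjusted p = 0.159 over 20 pairs), and no step passed 0.05. Igfbp5 in muscle was not uniform: EDL lay at 773.3 to 1068 CPM and soleus at 202.6 to 258.7 CPM in lean mice. In heart, lean libraries split into 88.7, 86.0 and 160.5 CPM and the higher 298.2 and 256.4 CPM.

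**Figure D1:**
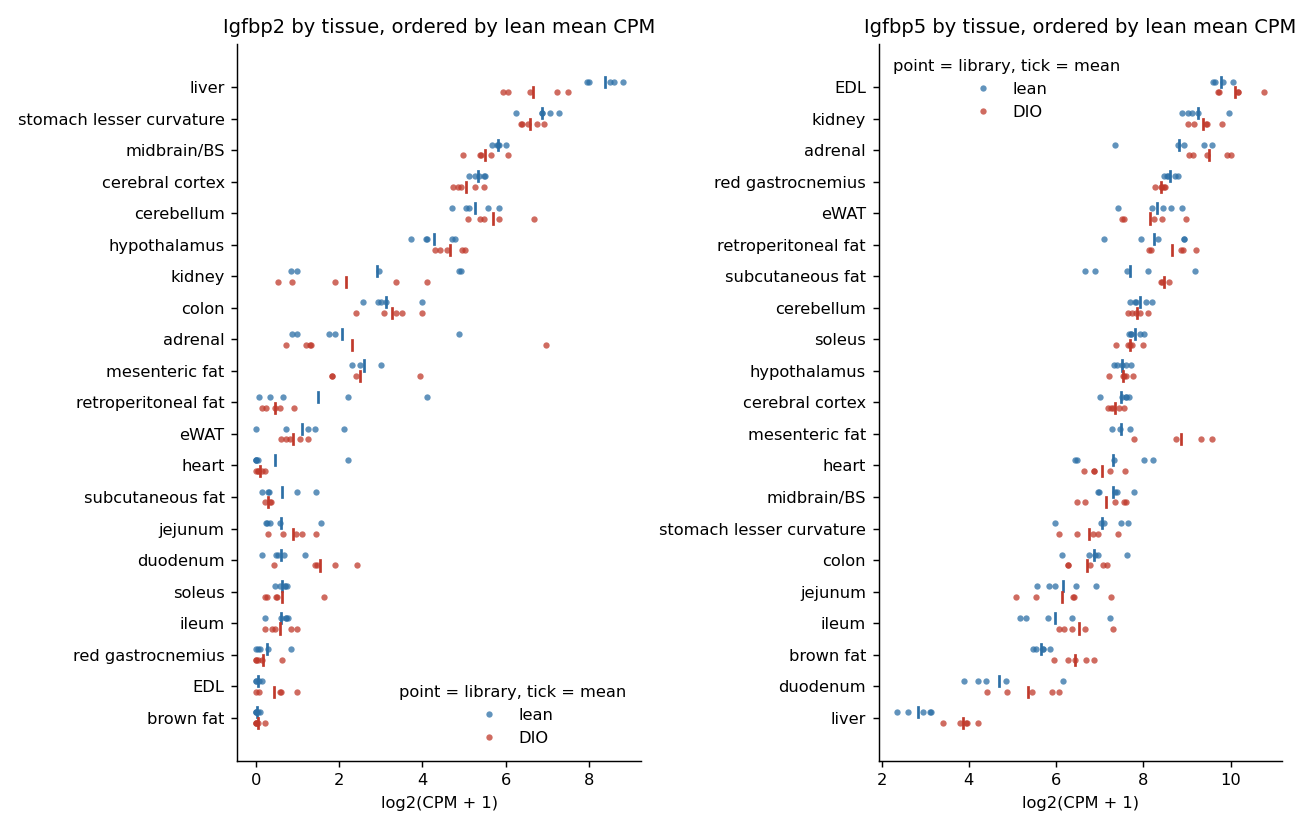
Igfbp2 (left) and Igfbp5 (right) in each library as log2(CPM + 1), with tissues ordered by their lean mean CPM, blue points for lean, red for DIO, and ticks at the mean of the plotted values. Igfbp2 falls from 338.8 CPM in lean liver to under 1 CPM in 9 tissues, while Igfbp5 is lowest in liver and at or above 100 CPM in 16 tissues.

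Per kilobase of exon and by group means, Igfbp2 was the higher of the pair in 3 lean tissues and Igfbp5 in the other 18. In liver Igfbp2 stood at 183 CPM per kilobase against 1.05 for Igfbp5, a 175-fold excess. Stomach had 64.4 against 23.5 CPM per kilobase and midbrain/BS 30.1 against 26.6. The midbrain/BS order was not firm: Igfbp5 there ranged from 123.7 to 220.9 CPM in lean libraries. In DIO its midbrain/BS mean was 24.4 CPM per kilobase, against 24.6 for Igfbp2. At the other end, EDL had 147 CPM per kilobase of Igfbp5 against 0.0243 of Igfbp2. Over the 21 lean tissue means of log2(CPM + 1) the 2 neighbours had a Pearson correlation of -0.31 and a Spearman correlation of -0.11, which describes means that share libraries and depth.

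The genes most like each member were taken by Pearson correlation over those 21 means among 3458 genes with at least 10 CPM in a lean tissue. For Igfbp2 they were Upp2, a uridine phosphorylase (0.88), F5, coagulation factor V (0.84), Etnk2, an ethanolamine kinase (0.83), Rgs16, a regulator of G protein signalling (0.78), and Itih2, an inter-alpha-trypsin inhibitor heavy chain (0.78). All 5 had their highest lean level in liver. For Igfbp5 they included Nenf, the secreted protein neudesin (0.82), Polr3gl, an RNA polymerase III subunit (0.81), Nes, the intermediate filament nestin (0.79), and Fbxw5, an F-box protein (0.77). The highest lean levels of these 4 were in stomach, eWAT, soleus and kidney in that order. Upp2 also ranked first by Spearman correlation and over the DIO means.

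DIO was then compared with lean in each tissue by limma on log2(CPM + 1). Genes entered where their mean in the tissue reached 10 CPM, with Benjamini-Hochberg adjustment over those genes and a threshold of 0.05. Igfbp2 could be tested in 7 tissues and fell in 1 of them, liver. Igfbp5 could be tested in all 21 and rose in 3: liver, brown fat and mesenteric fat. These were tissues with many calls, at 27.0% of tested genes in liver, 44.1% in brown fat and 44.9% in mesenteric fat in either direction. Elsewhere the share of tested genes called was 54.1% in eWAT, 45.1% in retroperitoneal and 12.5% in subcutaneous fat. Soleus had 1.71%, red gastrocnemius 5.06% and jejunum 10.1%. The share was 0.289% in duodenum, 0.128% in adrenal, 0.114% in heart, 0.0684% in EDL, 0.0505% in kidney, 0.0493% in stomach and 0.00% in the 4 brain regions, ileum and colon. Without the filter, Igfbp2 passed by limma in none of the 14 tissues left out, and the lowest p was in duodenum (unadjusted 0.0181, adjusted 0.286).

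In liver Igfbp2 fell with the fat-rich diet. Lean libraries had 387.9, 253.6, 361.2, 243.9 and 447.2 CPM, and DIO libraries had 180.2, 59.9, 64.9, 94.7 and 148.3 CPM. Every DIO library lay below every lean one, and 17.5% of genes tested in liver had groups that did not overlap. The means were 109.6 ± 52.9 against 338.8 ± 88.0 CPM (SD, n = 5 each), 3.09 times lower in DIO. The log2 change was -1.71 ± 0.30 (SE; limma, adjusted p = 0.0019), in a tissue where 6.06% of genes were called lower. With each library left out in turn it stayed between -1.92 and -1.53 and passed each time.

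Igfbp5 in liver rose from a low level. Lean libraries had 6.75, 5.09, 7.82, 4.11 and 7.65 CPM, and DIO libraries had 9.63, 17.6, 14.6, 14.4 and 13.0 CPM, again with no overlap. These values rested on 81 to 449 reads per library. The mean rose from 6.28 ± 1.63 to 13.8 ± 2.89 CPM (SD, n = 5 each), 2.20 times, with a log2 change of 1.03 ± 0.18 (SE; limma, adjusted p = 0.0018) where 20.9% of genes were called higher. With an overall mean of 10.1 CPM the gene passed the filter only through its DIO libraries. Without any filter its adjusted p was 0.0048, and it passed with each library left out.

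The 2 genes thus moved in opposite directions in liver. The log2 of (Igfbp5 + 1) over (Igfbp2 + 1) CPM was -2.79 ± 0.97 in DIO and -5.53 ± 0.15 in lean liver (SD, n = 5 each). The difference was 2.75 (exact two-sided permutation p = 0.00794, the smallest 5 against 5 allows, and 0.0833 after adjustment over 21 tissues). Given the other tissues, that adjusted value could be no lower, whatever the size of the difference. DIO libraries ranged from -4.09 to -1.71 and lean libraries from -5.70 to -5.36, so the spread was wider in DIO.

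Other measures of the liver libraries moved with diet as well. Of 8 hepatocyte markers, all tested, 5 were lower in DIO (6.06% of all genes tested), and the list summed to 20691 to 22921 CPM in DIO against 26160 to 30095 CPM in lean libraries. Of 9 fibroblast and matrix markers 4 were tested and 3 were higher (20.9% of all genes tested), with sums of 122 to 321 CPM in DIO and 76.1 to 119 CPM in lean. A difference between the mean log2 levels of 2 sets of 5 genes, called the 10-gene index and taken over from earlier work on these data, contrasts Rpl39, Cops9, Rpl22l1, Atp5e and Ndufc1 with Ncoa6, Ubap2l, S100a1, Dynlrb1 and Kantr. It lay at 0.258 to 0.503 in DIO and 0.582 to 0.926 in lean liver without overlap. With the index as a covariate Igfbp2 changed by -1.67 ± 0.52 (limma, adjusted p = 0.101) and Igfbp5 by 0.73 ± 0.29 (limma, adjusted p = 0.194), so neither passed. The part of these measures in the diet differences was not tested.

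**Figure D2:**
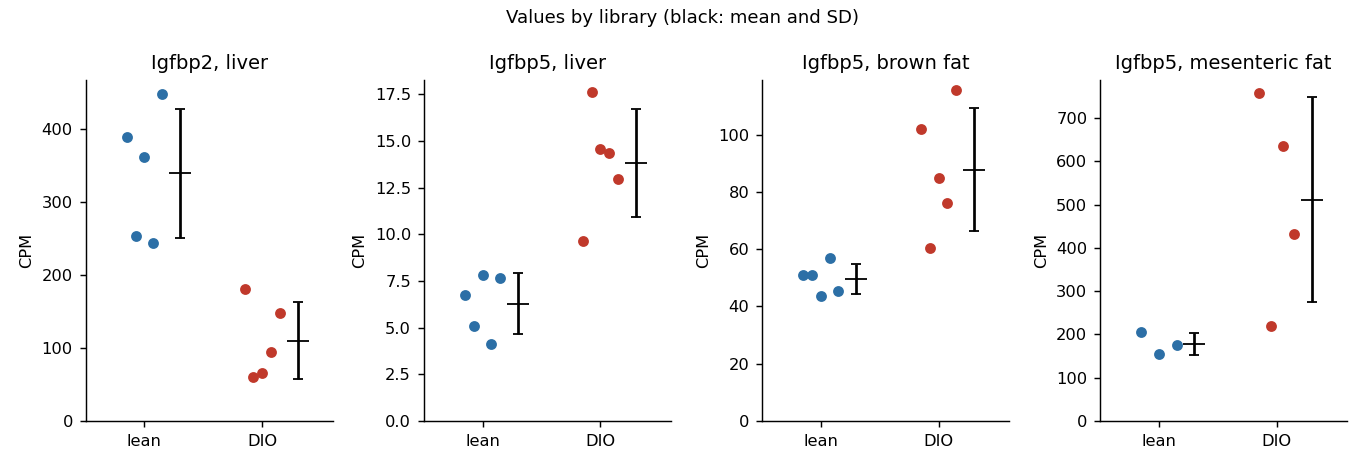
CPM of Igfbp2 in liver and of Igfbp5 in liver, brown fat and mesenteric fat, 1 point per library (blue lean, red DIO) with the group mean and SD in black and axes from 0. In each panel no DIO library falls within the lean range; mesenteric DIO 2, at 219.0 CPM, is the nearest to it.

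Brown fat, a heat-producing depot with almost no Igfbp2, had more Igfbp5 in DIO. Lean libraries had 51.0, 51.0, 43.7, 56.9 and 45.5 CPM, and DIO libraries had 102.1, 60.5, 85.0, 76.1 and 115.7 CPM. No DIO library fell within the lean range, as for 30.8% of genes tested there. The means were 87.9 ± 21.6 against 49.6 ± 5.23 CPM (SD, n = 5 each), 1.77 times higher, and the log2 change was 0.78 ± 0.15 (SE; limma, adjusted p = 0.0014) where 29.0% of genes were called higher.

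Skeletal muscle genes were high in brown fat DIO 5 (1691 CPM summed) and lean 2 (698 CPM) and lay at 2.18 to 235 CPM in the others. The change of Igfbp5 was 0.69 without those 2 libraries (limma, adjusted p = 0.0039) and 0.89 with log2 Ttn, a giant muscle filament gene, as a covariate (limma, adjusted p = 0.00077). It passed under all 9 alternative settings and with each library left out. Fibroblast and matrix markers rose in the same libraries: 5 of 7 tested were higher (29.0% of all genes tested), and the 9 summed to 1166 to 1364 CPM in DIO against 445 to 545 CPM in lean. Endothelial markers were higher in 5 of 5 tested, smooth muscle and pericyte markers in 3 of 4 and macrophage markers in 2 of 2 (29.0% of all genes tested). Of 3 adipocyte markers none was higher and 1 lower (29.0% and 15.1% of all genes tested), with a median change of 0.00. Their sums were 10215 to 11591 CPM in DIO against 9270 to 11873 CPM in lean. Within DIO, the library with the highest fibroblast and matrix sum (DIO 2, 1364 CPM) had the lowest Igfbp5 (60.5 CPM). The part of other cell types in the Igfbp5 difference was not tested.

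Mesenteric fat had the largest estimated Igfbp5 change of the 21 tissues but the fewest libraries. DIO libraries had 758.6, 219.0, 636.4 and 431.6 CPM, and lean libraries had 204.6, 154.8 and 176.1 CPM. The groups did not overlap, which held for 63.5% of genes tested there, though DIO 2 was close to lean 1. The means were 511 ± 237 (SD, n = 4) against 179 ± 25.0 CPM (SD, n = 3), 2.86 times higher. The log2 change was 1.38 ± 0.41 (SE; limma, adjusted p = 0.0309), against a median of 0.40 over all genes tested and with 38.0% of genes called higher.

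This call depended on the libraries and settings used. DIO 1 and DIO 3 carried small bowel genes (67.9 and 53.4 CPM summed, tissue median 1.88) and DIO 4 pancreatic acinar genes (146 CPM, tissue median 3.98). Without these 3 libraries the single DIO library left, assumed to vary like the lean ones, gave a change of 0.30 (limma, adjusted p = 0.125). That library, DIO 2, held the lowest Igfbp5 of the DIO group and a lymphoid marker sum of 1476 CPM, against 168 to 320 CPM in the other DIO libraries. Rescaling the tissue's libraries by median-of-ratios factors gave 1.01 (limma, adjusted p = 0.126), and 6 of 7 fits with 1 library left out did not pass. The exception was the fit without DIO 2, at 1.74 (limma, adjusted p = 4.0e-04).

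Fibroblast and matrix markers in mesenteric fat were higher in 7 of 9 tested (38.0% of all genes tested) and summed to 2968 to 5310 CPM in DIO against 1606 to 1842 CPM in lean. The lowest DIO sum was that of DIO 2, the DIO library lowest in Igfbp5. Macrophage markers were higher in 5 of 5 tested (38.0% of all genes tested), with sums of 681 to 1024 against 113 to 165 CPM. Adipocyte markers went the other way: 2 of 3 were lower (6.90% of all genes tested), with a median log2 change of -1.05. Their sums were 7396 to 14629 CPM in DIO and 16280 to 18854 CPM in lean, without overlap. The pair that passed was Pck1, an enzyme of glycerol synthesis in fat, with a log2 change of -1.63, and Irs1, which is also in the insulin signalling list. Fabp4, a fatty acid carrier and the most abundant of the 3, changed by -0.45 and did not pass (limma, adjusted p = 0.270). The part of these cell types in the Igfbp5 difference was not tested.

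**Figure D3:**
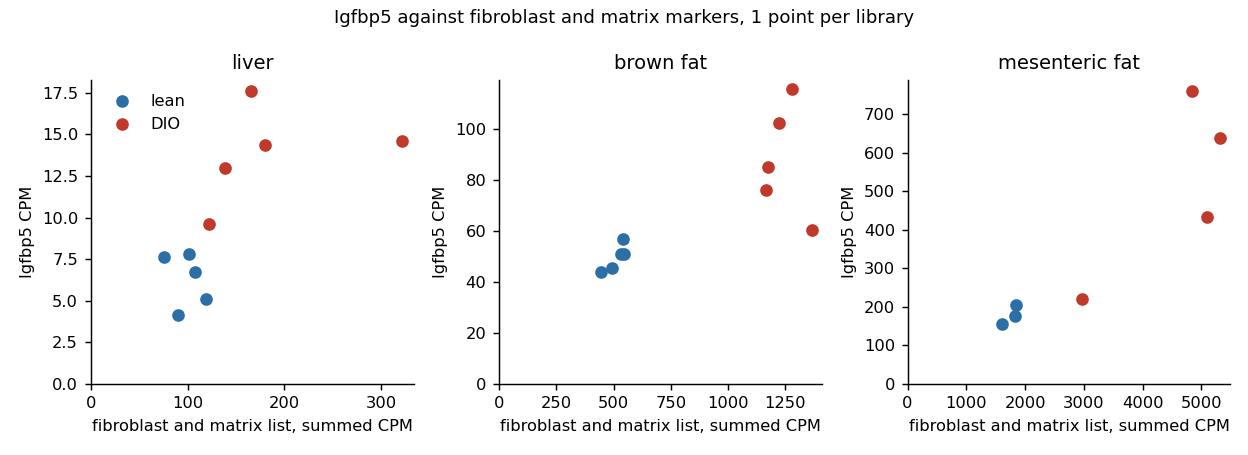
Igfbp5 CPM against the summed CPM of 9 fibroblast and matrix markers in liver, brown fat and mesenteric fat, 1 point per library, blue lean and red DIO, axes from 0. In all 3 tissues the DIO libraries lie higher on both axes, and within brown fat the DIO library with the highest marker sum (1364 CPM) has the lowest Igfbp5 of its group (60.5 CPM).

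A chosen list of 14 other genes of the IGF and insulin signalling axis was also followed. In mesenteric fat 9 were tested, 8 were higher and 1 was lower (38.0% and 6.90% of all genes tested), with a median log2 change of 0.77 against 0.40 over all genes. These calls include DIO 1, DIO 3 and DIO 4, which stood apart, and are given without rescaling. Grb14, an adaptor that inhibits insulin receptor signalling, rose from 27.8 CPM in lean to 82.1 CPM in DIO (log2 change 1.5). Foxo1, a transcription factor restrained by insulin, changed by 0.78, Ptpn1, a phosphatase of the insulin receptor, by 0.95 and the GTPase gene Nras by 0.77. Foxo4 changed by 0.40, the kinase subunit gene Pik3ca by 0.32 and Tsc1, a brake on mTOR, by 0.33. The changes of Foxo4, Pik3ca and Tsc1 lay near or under the median over all genes. Irs1, the insulin receptor substrate, fell from 64.0 to 31.3 CPM (log2 change -1.05).

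In brown fat 9 of the 14 were tested, 4 rose and 1 fell (29.0% and 15.1% of all genes tested), and the median change was 0.07 against 0.05 over all genes. Grb14 rose by 0.89 on the log2 scale, Nras by 0.35 and Foxo4 by 0.24, and Irs1 went from 41.2 to 21.9 CPM (log2 change -0.87). In liver 8 were tested, none rose and 1 fell (20.9% and 6.06% of all genes tested), with a median change of 0.12 against 0.09 over all genes. The 1 that fell was Grb14, from 70.1 to 56.6 CPM (log2 change -0.30, limma, adjusted p = 0.0044). Liver Irs1 was 20.9 in DIO and 26.8 CPM in lean and did not pass (limma, adjusted p = 0.091). Whether these genes changed differently between the tissues was not tested.

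A second list held 10 matrix proteins, integrins and other surface partners of the kind that IGF binding proteins attach to. In brown fat 7 were tested, 5 rose and 1 fell (29.0% and 15.1% of all genes tested), with a median change of 0.92 against 0.05 over all genes. The 5 were Thbs1, thrombospondin-1 (2.21), Bgn, the proteoglycan biglycan (1.45), Fn1, fibronectin (1.19), Itga6, an integrin chain (0.92), and Fbn1, fibrillin-1 (0.70), while the surface proteoglycan gene Sdc4 changed by -0.47. In mesenteric fat 9 were tested and 5 rose (38.0% of all genes tested), the median being 0.89 against 0.40 over all genes. These were Itga4 (2.10), Bgn (1.13), Fn1 (0.99), Itgav (0.89) and Sdc4 (0.63). The mesenteric calls here too include the DIO libraries that stood apart and are given without rescaling. In liver 4 were tested, none rose and 1 fell (20.9% and 6.06% of all genes tested), Sdc4, from 307 to 245 CPM (log2 change -0.31). Fbn1 and Fmod are also in the fibroblast and matrix list.

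A chosen list of 6 genes on chromosome 1 on either side of the pair, here called neighbours, was followed with diet. They were picked by name and do not all lie close to the pair: Tns1 starts at 73910231, while Igfbp5 ends at 72874884. In liver 4 were tested, 1 rose and 1 fell (20.9% and 6.06% of all genes tested). Xrcc5, a DNA repair gene, rose by 0.38 on the log2 scale and the ribosomal protein gene Rpl37a changed by -0.38. In brown fat 3 were tested and 2 rose (29.0% of all genes tested): Tns1, a focal adhesion gene (0.63), and Smarcal1, a DNA repair helicase (0.26). In mesenteric fat none of 4 passed by limma, where 38.0% of all genes tested were called higher and 6.90% lower. With 3 or 4 genes a tissue these counts do not set the neighbours apart from the other genes tested.

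The other white fat depots gave no call for Igfbp5. Subcutaneous fat had 343.5, 339.8 and 381.3 CPM in DIO, all within the lean spread of 272.7, 100.4, 118.2, 580.6 and 197.5 CPM (log2 change 0.78 ± 0.53; limma, adjusted p = 0.373). Lean 2 and lean 3, the lowest of that group, carried lymphoid genes (1134 and 1564 CPM summed), and without them the change was 0.17. Retroperitoneal fat averaged 419 ± 134 against 335 ± 153 CPM (0.41 ± 0.34) and eWAT 303 ± 133 against 335 ± 113 CPM (-0.17 ± 0.31, SE; n = 5 each). The eWAT sign turned to 0.06 without lean 1 and lean 3. Igfbp2 in these depots stayed under 5 CPM, apart from 16.4 CPM in retroperitoneal lean 4 and 14.3 and 6.98 CPM in mesenteric DIO 1 and lean 1. Retroperitoneal lean 4 and lean 3 (3.67 CPM) were 2 of the 3 libraries of that depot with hepatocyte markers.

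A test of diet by tissue over the 4 white fat depots gave F = 2.16 for Igfbp5 (limma, adjusted p = 0.176), and 0.990 without the libraries that stood apart, where 38.6% of genes tested passed with all libraries. The mesenteric change was therefore not shown to differ from that of the other depots.

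In muscle, Igfbp5 was highest in EDL under both diets. DIO libraries of EDL had 846.7, 1154, 1738, 1143 and 839.0 CPM against 1068, 791.4, 906.3 and 773.3 CPM in lean, which overlapped (0.33 ± 0.20; limma, adjusted p = 0.890). Red gastrocnemius leaned the other way, with 357.1, 340.4, 353.2, 308.1 and 339.4 CPM in DIO and 379.3, 441.1, 351.6, 421.9 and 373.9 CPM in lean. Those groups overlapped only at lean 3, the log2 change was -0.21 ± 0.06 and it did not pass by limma (adjusted p = 0.0903), while DESeq2 on recovered reads called it (adjusted p = 0.0361). Soleus changed by -0.13 ± 0.11 and heart by -0.26 ± 0.35, neither passing. The diet by muscle interaction of Igfbp5 had F = 3.84 with an unadjusted p of 0.034, and an adjusted p of 0.999 by limma (0.0614% of genes passed).

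Along the gut Igfbp5 varied more between libraries than between diets. Part of this spread went with the index described for liver. Ileum DIO 2, DIO 3, lean 3 and lean 4 (index -0.82 to -0.03) had 80.9 to 157.9 CPM. The remaining ileum libraries (1.26 to 1.98) had 34.9 to 81.8 CPM. Colon DIO 1, lean 2 and lean 4 (-1.31 to -0.74) had 123.8 to 197.0 CPM. The remaining colon libraries (1.01 to 1.47) had 69.6 to 134.2 CPM. Jejunum lean 1, lowest in index (-0.43), had 87.4 CPM, below lean 3 (1.78, 118.8 CPM). The part of the index in this spread was not tested. Duodenum had 20.4, 59.4, 42.7, 28.3 and 66.2 CPM in DIO and 13.8, 20.0, 70.2, 27.8 and 17.5 CPM in lean (0.65 ± 0.44; limma, adjusted p = 0.378). Without lean 3, the highest library of that tissue, the change was 1.01 (limma, adjusted p = 0.0383). The share of genes called in that fit is not given here. Among lean duodenum libraries lean 3 had the lowest index (1.22) and lean 1, lowest in Igfbp5, the highest (1.88). Among DIO libraries the lowest index (DIO 4, 1.06) stood beside 28.3 CPM. With the index as a covariate over all duodenum libraries the change turned negative and did not pass. The part of the index in duodenum was not tested. Ileum changed by 0.54 ± 0.36, jejunum by -0.02 ± 0.36 and colon by -0.16 ± 0.25, and none passed. The jejunum sign depended on scaling, being 0.11 after rescaling. Igfbp2 in colon lay at 4.26 to 14.9 CPM in DIO and 4.91 to 14.8 CPM in lean, and in the small bowel it stayed under 5 CPM. The diet by segment interaction of Igfbp5 gave an adjusted p of 0.578 by limma (16.1% of genes passed).

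Stomach (lesser curvature), second for Igfbp2, showed no call. Its DIO libraries had 106.3, 82.1, 120.2, 92.0 and 81.5 CPM and its lean libraries 153.7, 132.2, 116.6, 75.1 and 116.7 CPM (-0.28 ± 0.20; limma, adjusted p = 0.504). Igfbp5 there changed by -0.30 ± 0.31. Hepatocyte markers were highest in lean 5 (1298 CPM summed), and without it Igfbp2 changed by -0.27.

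Kidney, second for Igfbp5, had 514.8, 568.7, 704.2, 685.8 and 895.7 CPM in DIO and 517.8, 471.2, 996.9, 606.6 and 552.0 CPM in lean (0.13 ± 0.20; limma, adjusted p = 0.794). Igfbp2 in kidney was erratic under both diets: DIO libraries had 0.443, 2.76, 0.818, 16.2 and 9.37 CPM, overlapping the lean ones. Its mean of 9.56 CPM fell just under the filter, and without the filter the change was -0.76 ± 0.95 (limma, adjusted p = 0.776).

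Adrenal Igfbp5 was 1032, 526.5, 697.4, 970.4 and 558.8 CPM in DIO and 162.9, 484.3, 441.8, 762.1 and 668.7 CPM in lean (0.70 ± 0.41; limma, adjusted p = 0.563). The lowest value was lean 1 and the highest DIO 1, both among the libraries that lacked Hsd3b1, and without the 3 such libraries the change was 0.33 ± 0.27. Adrenal Igfbp2 was 123.2 CPM in DIO 1 and 28.4 CPM in lean 1 and 0.667 to 2.76 CPM in the other 8 libraries. DIO 1 was also the library with 11232 CPM of hepatocyte genes, whereas lean 1 had 81.2 CPM of them, fewer than lean 2 (141 CPM), whose Igfbp2 was 2.37 CPM. The test of adrenal Igfbp2 (0.23 ± 1.29) was possible only because DIO 1 lifted the mean above the filter.

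**Figure D4:**
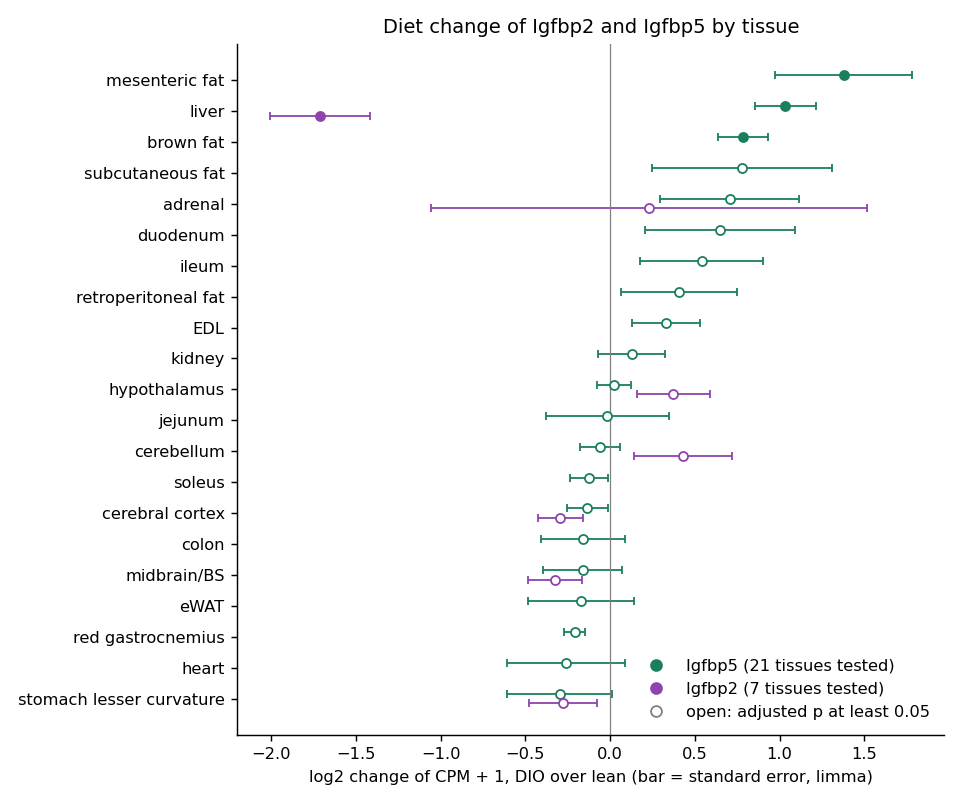
Log2 change of CPM + 1, DIO over lean, for Igfbp5 (green, 21 tissues) and Igfbp2 (purple, 7 tissues) with the standard error from limma, filled where the adjusted p was under 0.05. The filled points are Igfbp5 in mesenteric fat (1.38), liver (1.03) and brown fat (0.78), and Igfbp2 in liver (-1.71).

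In the brain, Igfbp5 showed log2 changes of 0.02 ± 0.10 in hypothalamus, -0.06 ± 0.12 in cerebellum, -0.13 ± 0.12 in cortex and -0.16 ± 0.23 in midbrain/BS, none of which passed. Igfbp2 pointed in different directions between regions. In cortex it was 25.8, 27.8, 29.6, 37.2 and 43.3 CPM in DIO and 43.2, 40.2, 37.5, 44.5 and 33.7 CPM in lean (-0.29 ± 0.14; limma, unadjusted p = 0.049, adjusted p = 0.842). In hypothalamus it was 20.6, 31.4, 29.7, 22.9 and 18.8 CPM in DIO and 16.04, 16.1, 12.2, 26.5 and 25.2 CPM in lean (0.37 ± 0.22; limma, adjusted p = 0.842). All of these groups overlapped.

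Midbrain/BS Igfbp2 was 65.4, 30.3, 41.6, 49.3 and 40.6 CPM in DIO and 53.8, 49.8, 55.4, 55.8 and 62.8 CPM in lean (-0.32 ± 0.16). Cerebellum had 40.4, 33.3, 100.9, 56.3 and 43.4 CPM in DIO and 46.9, 56.0, 32.2, 33.8 and 25.3 CPM in lean (0.43 ± 0.29). Neither passed. Diet by region gave F = 3.17 for Igfbp2 (limma, unadjusted p = 0.036, adjusted p = 0.999, with 0.00% of genes passing), so the directions were not shown to differ.

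The choroid plexus, the tissue that makes cerebrospinal fluid, is a known site of Igfbp2, and markers of it varied between brain libraries. The 5 markers summed to 102 CPM in cerebellum DIO 3, the library with the highest cerebellar Igfbp2 (100.9 CPM), and to 6.33 CPM in cerebellum lean 5, the lowest (25.3 CPM). In midbrain/BS the highest sum was 38.4 CPM in DIO 1 (Igfbp2 65.4 CPM) and the lowest 2.89 CPM in DIO 2 (30.3 CPM), both extremes of Igfbp2 in that region. In cortex DIO 5 had the highest sum (40.4 CPM) and DIO 1 the lowest (8.59 CPM), with 43.3 and 25.8 CPM of Igfbp2. The library highest in Igfbp2 was not always the one highest in the markers. Among lean midbrain/BS libraries Igfbp2 was highest in lean 5 (62.8 CPM, sum 25.9 CPM) and the marker sum in lean 3 (29.2 CPM, Igfbp2 55.4 CPM). Among lean cerebellum libraries these were lean 2 (56.0 CPM, sum 43.3 CPM) and lean 1 (sum 45.2 CPM, Igfbp2 46.9 CPM). The highest cortical Igfbp2, 44.5 CPM in lean 4, stood beside a sum of 22.8 CPM, which was the highest sum among lean cortex libraries. In hypothalamus lean 4 had 26.5 CPM of Igfbp2 beside a sum of 5.93 CPM. The part of choroid plexus RNA in the Igfbp2 values was not tested.

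**Figure D5:**
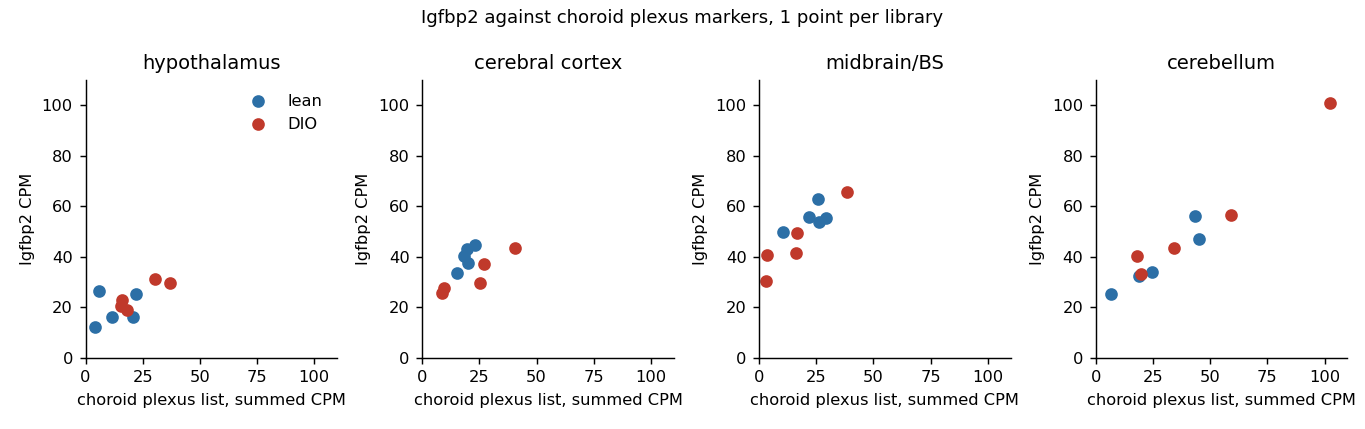
Igfbp2 CPM against the summed CPM of 5 choroid plexus markers in 4 brain regions, 1 point per library, blue lean and red DIO, with shared axes from 0. Cerebellum DIO 3 is highest on both axes, at 102 and 100.9 CPM.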

How the data were processed

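Per the labels, polyadenylated RNA from frozen tissue was made into stranded libraries and sequenced as paired reads. The deposited table holds CPM, which the authors computed, with STAR, HTSeq, DESeq2 and FastQC named in the submitters' processing notes. The sources used here give no version, build or strand setting. The table's genes cover part of the genome (13.0% to 23.1% of a library's reads). Of 205 columns 1 was left out because no sample matched it, and 1 of 13154 genes was incomplete and left out. All values (100%) were whole reads within 0.001. Replicate libraries differed beyond sampling noise in all 398 pairs (lowest chi-square per degree of freedom 3.48), so none was counted as a duplicate.

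DIO was compared with lean by limma 3.58.1 in R 4.3.3, using log2(CPM + 1), a mean-variance trend and genes whose mean reached 10 CPM, each tissue alone. Fold changes on this scale understate those of low genes. Diet by tissue was an F test in limma. The alternatives were no filter, median-of-ratios rescaling, pseudocounts of 5 and 0.5, edgeR 4.0.16 and DESeq2 1.42.0 on recovered reads, the 10-gene index or Ttn as a covariate, leaving out 18 libraries, and leaving out each library. A library stood apart when a marker list foreign to its tissue reached 30 CPM and 10 times the tissue median, or when adrenal Hsd3b1 was under 1% of its median. Leaving out liver libraries without the filter was added after the data were seen. Genes were named by rule: the pair, members of 3 lists past the threshold where one of the pair passed, and the 5 most alike. Single values of some genes this rule takes are not reported, while counts and medians keep them. The members, lists and library rule were chosen with earlier results of these data known. The limma and edgeR fits were also run on reads simulated for liver and for brown, subcutaneous and mesenteric fat. Those reads modelled neither foreign tissue nor shifts of the index, and the outcome is not reported here.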

Additional observations from a re-analysis of the deposited data

Results flagged for a closer look

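In 53 groups of 4 or 5 libraries with a mean of at least 10 CPM, 4 had a library far from the others by Dixon's ratio of gap to range, a test that chance passes in about 1 group in 20. Igfbp2 in adrenal DIO 1 was 123.2 CPM, against 0.667 to 1.52 CPM in the other DIO libraries. That group reached a mean of 10 CPM only through DIO 1, so the flagged value also let it in. Igfbp5 in duodenum lean 3 was 70.2 CPM, against 13.8 to 27.8 CPM in the rest of its group. Igfbp5 in kidney lean 3 was 996.9 CPM, where the others had 471.2 to 606.6 CPM. Igfbp5 in cortex lean 3 was low at 127.4 CPM, where the others had 181.7 to 202.3 CPM. Cortex DIO 1, DIO 3, DIO 5 and lean 3 had a 10-gene index of -0.51 to -0.40 and 127.4 to 156.3 CPM of Igfbp5. The remaining cortex libraries of both diets had an index of -2.76 to -2.31 and 172.0 to 202.3 CPM. Cerebellum DIO 2, DIO 5, lean 2 and lean 4 had an index of -2.71 to -2.31 and 242.7 to 292.1 CPM of Igfbp5. The remaining cerebellum libraries had an index of -0.66 to -0.24 and 200.8 to 226.3 CPM. The part of the index in the low cortex value or in the cerebellum levels was not tested.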

How the results depend on the processing

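The brown fat rise of Igfbp5 passed under all 9 alternatives (log2 change 0.69 to 0.89 across them), and both liver changes passed under 6 of 7. Of these 7 only the fit without the filter did without the 10 CPM limit, which liver Igfbp5 met only through its DIO libraries. For that gene the passes that kept the filter are therefore not separate support. With the 10-gene index as a covariate Igfbp2 in liver was -1.67 and Igfbp5 0.73, and neither passed. The number of tissues with a fall of Igfbp2 then went from 1 to 0 and that with a rise of Igfbp5 from 3 to 1. Mesenteric Igfbp5 did not pass without the filter (1.38), after rescaling (1.01), with edgeR (1.16), with the index (1.02) or without the libraries that stood apart (0.30). It ranged from 1.14 to 1.74 with 1 library left out. DESeq2 counted 1 tissue with a fall of Igfbp5 (red gastrocnemius) against 0 by limma, and leaving out single libraries gave 0 to 1 such tissue and 2 to 4 with a rise. The highest tissue mean moved to 109.6 CPM (Igfbp2, liver) and 1144 CPM (Igfbp5, EDL) in DIO libraries.

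Only changes that had not passed turned in sign. With the index these were Igfbp5 in duodenum (-0.040), heart (0.044) and colon (0.048) and Igfbp2 in adrenal (-0.052). Igfbp5 in jejunum turned after rescaling (0.11) and with edgeR (0.19) or DESeq2 (0.20), and in eWAT without the libraries that stood apart (0.059). With 1 library left out, Igfbp5 ranged from -0.036 to 0.10 in hypothalamus, -0.28 to 0.0030 in midbrain/BS, -0.13 to 0.0083 in cerebellum, -0.30 to 0.25 in jejunum and -0.34 to 0.029 in colon, and Igfbp2 in adrenal from -0.074 to 0.93. The log ratio of the pair then ranged from -0.59 to 1.51 in adrenal and -0.24 to 0.24 in stomach. Apart from alternatives built on fewer libraries or more genes, the cause was not tested. Igfbp5 in liver fell under the filter without DIO 2, DIO 3, DIO 4 or DIO 5, and in fits without the filter it ranged from 0.91 to 1.15. Adrenal Igfbp2 could not be tested without DIO 1 or without the libraries that stood apart.

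No paired analysis was possible because the labels give no replicate numbers. At 3 to 5 libraries a group, changes near the size of the standard errors given cannot be told from 0. Changes of several standard errors could also fail, as for Igfbp5 in red gastrocnemius by limma (-0.21 ± 0.06). Below 1 CPM Igfbp2 rests on a handful of reads.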
